A study of Mus musculus with 36 samples.

Results

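The IL-1 family, IL-6 and TNF cytokine genes were followed in the left lung of mice given crude oil and oil dispersants by the airway. The set held 10 genes chosen by symbol, namely the ligand genes Il1a, Il1b, Il18, Il33, Il6 and Tnf, the antagonist and binding protein genes Il1rn and Il18bp, and the receptor genes Il1r1 and Il1rl1. All 10 had a row among the 18120 genes of the female table and 9 had one among the 18295 genes of the male table. Il18 was not analysed here in male mice. RNA of 36 wild-type C57BL/6 mice was sequenced, 3 female and 3 male mice in each of 6 groups, with dosing begun at an age of 8 weeks. The groups received saline (control), MC252 oil, Corexit 9500, Corexit 9527, Corexit 9500 with oil (9500+oil) or Corexit 9527 with oil (9527+oil), as a 0.1 dilution of an accommodated fraction, in 3 doses on days 0, 7 and 13, and lungs were taken on day 14. The labels call the fraction WAF and the delivery intratracheal instillation, while the study's methods call it SAF and describe oropharyngeal aspiration. No mouse carried a transgene, and the counts of male and female mice came in separate tables, so an effect of sex and one of the table cannot be told apart.

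These cytokines carry alarm signals in the airway. IL-1alpha and IL-1beta act through the receptor encoded by Il1r1, which the antagonist encoded by Il1rn blocks without signaling. IL-33 is stored in the nuclei of lung epithelial and stromal cells, is released on damage, and acts through ST2, encoded by Il1rl1, on mast cells, innate lymphoid cells and T cells, where it is known for driving type 2 responses. IL-18 is held in check by its binding protein, and IL-6 and TNF are early inflammatory cytokines.

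The libraries held 17501180 to 30011557 counts per mouse. Levels are given in CPM, the count of a gene scaled by the size of its library after TMM normalization, and each mouse is named by its sex, group and number. The lung markers were present in all mice, with a sum of 9246 to 25725 CPM over 7 alveolar type 2 cell genes and of 3202 to 5610 CPM over 7 endothelial genes. In 4 female libraries, saline mouse 3, oil mouse 6, Corexit 9527 mouse 11 and 9500+oil mouse 14, mitochondrial genes took 20.7% to 45.1% of the counts, against 5.27% to 11.3% in the other 32 mice. In each of these 4 libraries Il33, Il1rl1 and Il1rn stood highest and Tnf lowest among the 3 mice of the group, so results in female mice are also given without them. In whole lung, fewer cells of a type and less RNA per cell cannot be told apart.

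The results turned mainly on Il33 and Il1rn. To show where their transcription begins, the 250 bases before 2 annotated starts of each are printed, from the RefSeq promoter table of build GRCm38.p6, which matched all 10 genes. Capitals mark matches, on either strand, to an AP-1 motif (TGANTCA), a STAT motif (TTCNNNNGAA) or the NF-kappaB consensus.
Il33, upstream start (chr19:29924863-29925112, + strand): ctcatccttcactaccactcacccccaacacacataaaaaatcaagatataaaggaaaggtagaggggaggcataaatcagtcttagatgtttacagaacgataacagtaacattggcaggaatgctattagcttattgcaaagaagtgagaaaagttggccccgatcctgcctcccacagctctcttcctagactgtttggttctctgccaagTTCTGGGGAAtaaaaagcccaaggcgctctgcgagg
Il33, downstream start (chr19:29945540-29945789, + strand): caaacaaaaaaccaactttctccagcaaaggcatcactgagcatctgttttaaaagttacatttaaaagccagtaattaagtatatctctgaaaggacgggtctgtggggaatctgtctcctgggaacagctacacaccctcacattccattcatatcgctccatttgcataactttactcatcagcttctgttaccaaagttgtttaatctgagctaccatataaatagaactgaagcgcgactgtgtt
Il1rn, upstream start (chr2:24336610-24336859, + strand): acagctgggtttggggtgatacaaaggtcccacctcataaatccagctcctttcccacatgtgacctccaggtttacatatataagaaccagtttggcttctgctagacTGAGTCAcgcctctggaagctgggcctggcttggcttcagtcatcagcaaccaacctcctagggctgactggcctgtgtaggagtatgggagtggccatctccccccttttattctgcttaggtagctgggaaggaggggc
Il1rn, downstream start (chr2:24345041-24345290, + strand): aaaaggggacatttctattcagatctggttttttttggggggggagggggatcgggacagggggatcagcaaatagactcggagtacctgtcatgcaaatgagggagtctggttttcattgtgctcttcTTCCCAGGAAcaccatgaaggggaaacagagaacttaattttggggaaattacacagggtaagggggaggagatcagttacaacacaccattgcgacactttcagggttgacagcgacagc
The first Il33 sequence holds a STAT match and the second no match, while the first Il1rn sequence holds an AP-1 match and the second a STAT match. Over the 15 starts of the 10 genes, 4 held a STAT match, of which 2 are the same site in overlapping sequences of the downstream Il1rn starts, 3 held an AP-1 match and 2 an NF-kappaB match, in Il6 and at the downstream start of Il1r1. Among all 32851 promoter sequences of this length, 5.85% held the STAT motif, 6.75% the AP-1 motif and 7.25% the NF-kappaB consensus. A match describes letters in this window and not binding.

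One difference in these genes passed the test over all genes, the quasi-likelihood test of edgeR with Benjamini-Hochberg adjustment. Il33 fell in mice treated with 9527+oil compared with mice treated with Corexit 9527 alone, over both sexes. No member passed against saline at an adjusted p under 0.05, in either sex or over both. At an unadjusted p under 0.05, male mice had 5 of the 8 members tested higher after Corexit 9527, 3 after oil, 2 after 9527+oil and 1 after 9500+oil, and female mice had none in any group. Over all genes 13.7%, 8.21%, 5.54% and 9.22% had one in these 4 male comparisons, in either direction, so the 1 of 8 after 9500+oil is near the share over all genes. Il6 and Il18 had too few counts to enter the fits.

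Per kilobase of exon, Il33 was the most abundant of these transcripts, with a median of 38.3 CPM per kb in female and 34.7 CPM per kb in male mice. Il1r1 had 7.95 and 8.71 CPM per kb and Il1b 5.02 and 9.12 CPM per kb, so Il1r1 was next in female and Il1b in male mice, and Il1rn had 3.28 and 3.59 CPM per kb. The medians of Il1a, Il18bp, Il1rl1 and Tnf lay between 0.796 and 2.26 CPM per kb. The medians of Il6 were 0, and Il18 was listed at 0 in most female mice.

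Il33, the gene of the nuclear alarm cytokine IL-33, lies at chr19:29925114-29960718 on the + strand of GRCm38. Among male mice its level was 70.9, 88.5 and 123 CPM after saline and 149, 154 and 316 CPM after Corexit 9527. The mice treated with 9527+oil had 80.0, 89.6 and 93.1 CPM. Every male Corexit 9527 mouse thus lay above every male saline mouse and every male 9527+oil mouse, and mouse 11 lay well above the other two. Male oil mice had 102 to 137 CPM, Corexit 9500 mice 88.8 to 125 CPM and 9500+oil mice 81.5 to 98.8 CPM. In order of the male means, Corexit 9527 (206 ± 95 CPM, SD, n = 3) was apart from the next group, oil (118 ± 18.1 CPM), in that no mice overlapped, while all other neighbours did overlap, down to 9500+oil (87.5 ± 9.72 CPM).

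Among female mice Il33 stood at 81.1, 92.5 and 192 CPM after saline, at 178, 226 and 309 CPM after Corexit 9527 and at 73.6, 79.6 and 109 CPM after 9527+oil. The female Corexit 9527 and 9527+oil mice did not overlap, whereas saline mouse 3 (192 CPM), one of the mitochondria-rich libraries, reached into the Corexit 9527 range. Without the mitochondria-rich libraries, the 2 remaining saline mice (81.1 and 92.5 CPM) and the 2 remaining Corexit 9527 mice (178 and 226 CPM) did not overlap. Corexit 9500 gave 112 to 228 CPM, oil 98.4 to 223 CPM and 9500+oil 80.2 to 178 CPM. The female means ran from 238 ± 66.2 CPM after Corexit 9527 to 87.5 ± 19.1 CPM after 9527+oil (SD, n = 3), and no neighbours in that order were apart.

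**Figure D1:**
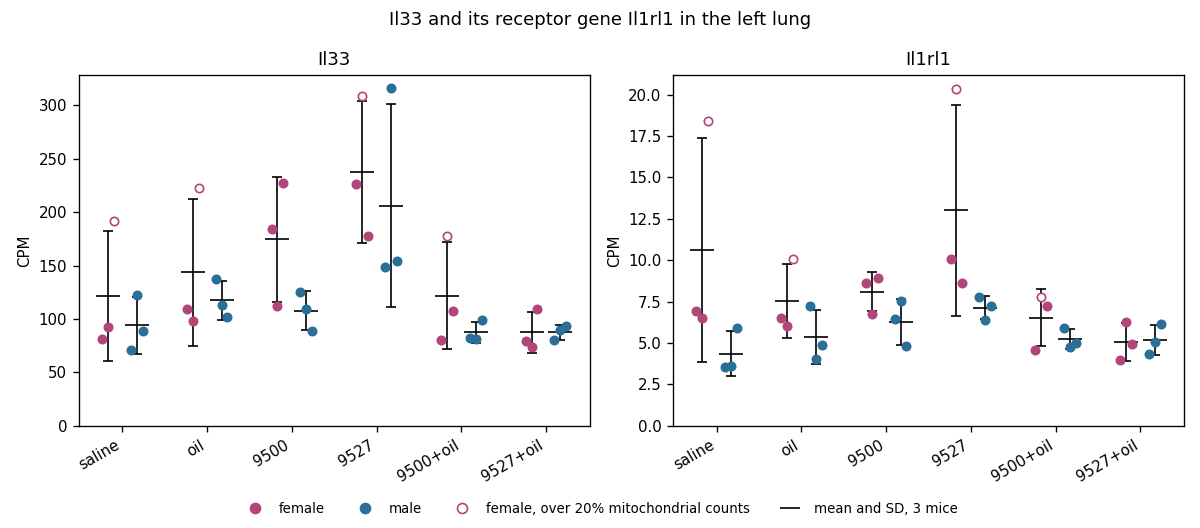
Level of Il33 (left) and Il1rl1 (right) in CPM, 1 point per mouse, by treatment and sex, with the mean and SD of 3 mice and open points for the 4 female libraries with over 20% mitochondrial counts. All 6 Corexit 9527 mice lie above all 6 mice treated with 9527+oil for Il33, with the lowest Corexit 9527 mouse at 149 CPM and the highest 9527+oil mouse at 109 CPM.

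Over both sexes, the log2 fold change of Il33 with oil added to Corexit 9527 against Corexit 9527 alone was -1.33 ± 0.22 (SE), or 0.398 times the level (edgeR quasi-likelihood test, unadjusted p = 5.44e-05, adjusted p = 0.0267). In this comparison 86 of 15396 genes, 0.559%, passed the adjusted threshold. The call held under the 8 other ways of fitting, with adjusted p from 3.78e-06 to 0.03. Without female Corexit 9527 mouse 11 the log2 fold change was -1.23 (adjusted p = 0.00513), in a fit where 1039 of 15660 genes passed. Il33 also passed without male Corexit 9527 mouse 12 (adjusted p = 0.0156). Leaving out any 1 of the other 10 mice lost the call, with adjusted p from 0.0557 to 0.112, and over all 12 fits the log2 fold change ran from -1.42 to -1.15.

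The receptor gene Il1rl1 followed Il33 in this comparison. Female mice had 8.61, 10.1 and 20.3 CPM of Il1rl1 after Corexit 9527 and 4.00, 4.94 and 6.29 CPM after 9527+oil. Male mice had 6.38, 7.24 and 7.76 CPM after Corexit 9527 and 4.35, 5.06 and 6.14 CPM after 9527+oil. In both sexes the groups did not overlap. The log2 fold change over both sexes was -0.90 ± 0.27 (SE), which did not pass (adjusted p = 0.198, edgeR). Without female Corexit 9527 mouse 11 it was smaller, at -0.66, with an adjusted p of 0.0318. In that fit 1039 of 15660 genes passed the adjusted threshold, where 86 of 15396 passed with all mice. Il1r1 (-0.38 ± 0.13), Il1a (-0.55 ± 0.21) and Il1rn (-0.78 ± 0.34) were also lower at an unadjusted p under 0.05. Without female Corexit 9527 mouse 11 the 3 values were -0.34, -0.41 and -0.41, and the same 5 members were lower at an unadjusted p under 0.05, where 25.6% of genes had one. With Il33 and Il1rl1 that made 5 of 8 members, all lower, where 14.1% of all genes had an unadjusted p under 0.05 in either direction. The median of the 8 members was -0.48, beside 0.01 over all genes tested.

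Marker genes of several cell types were counted in the same comparison, where 14.1% of all genes had an unadjusted p under 0.05. Of 9 alveolar macrophage markers, 4 were lower at an unadjusted p under 0.05, and of 9 neutrophil markers tested 4 were higher, while 1 of 7 alveolar type 2 and 1 of 7 alveolar type 1 markers were lower, about the share over all genes, and 3 of 7 endothelial markers were higher. The summed endothelial markers did not overlap in either sex, at 4204 to 4384 CPM after Corexit 9527 and 4725 to 5010 CPM after 9527+oil in male mice and at 3543 to 4164 CPM and 4534 to 5074 CPM in female mice. The summed alveolar macrophage markers were 567 to 701 CPM in male and 572 to 1051 CPM in female Corexit 9527 mice, against 499 to 544 CPM and 375 to 399 CPM after 9527+oil. None of the 9 alveolar macrophage markers, of 10 listed, and none of the endothelial markers was at 0 in any mouse. Their part in the Il33 result was not tested. Adding oil to Corexit 9500 gave no call (0% of genes), with Il33 at a log2 fold change of -0.41 ± 0.21 and none of 8 members at an unadjusted p under 0.05, where 1.95% of genes were. Without the mitochondria-rich 9500+oil mouse 14, Il33 alone of the 8 reached it, at -0.56 (adjusted p = 1), where 3.3% of genes did.

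Against saline, Corexit 9527 gave the highest Il33 levels in both sexes, but not an adjusted call. The log2 fold change was 1.04 ± 0.29 (SE) over both sexes (unadjusted p = 0.00401, adjusted p = 0.65, edgeR), 1.13 ± 0.31 in male mice (adjusted p = 0.17) and 0.95 ± 0.48 in female mice (adjusted p = 1). Over both sexes 0.0326% of genes passed after Corexit 9527. Without the mitochondria-rich libraries the value was 1.17 with an adjusted p of 0.0211, within a range of 0.00594 to 1 over the 9 other ways of fitting. In the fit without those libraries 331 of 15531 genes passed. In the other groups against saline, the log2 fold change of Il33 over both sexes lay between -0.30 after 9527+oil and 0.35 after Corexit 9500, and at -0.055 and 0.55 in these 2 groups without the mitochondria-rich libraries. Il1r1 (0.29 ± 0.13) was the other member at an unadjusted p under 0.05 after Corexit 9527 over both sexes, making 2 of 8, where 2.86% of genes were. After oil, Corexit 9500, 9500+oil and 9527+oil none of 8 members reached it over both sexes, where 0.442%, 2.3%, 0.418% and 2.99% of genes did, and 0% of genes passed the adjusted threshold. In fits that left out the mitochondria-rich libraries, 4 of 8 members (Il33, Il1r1, Il1rl1 and Il1rn) were higher at an unadjusted p under 0.05 after Corexit 9527, where 15.6% of genes had one in either direction. In the same fits Il33 and Il1rn were higher and Il1a lower after Corexit 9500 (5.62%), Il1a was lower after 9527+oil (10.6%), and none of 8 reached it after oil or 9500+oil (2.52% and 7.16%).

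Il1rl1 was 3.53, 3.62 and 5.92 CPM in male saline mice. Its level was 6.38 to 7.76 CPM in male Corexit 9527 mice, above all 3 saline mice, with a log2 fold change of 0.71 ± 0.26 (adjusted p = 0.271, edgeR). In the other treated male groups Il1rl1 ran from 4.02 to 7.56 CPM and overlapped saline. Female saline mice had 6.50, 6.94 and 18.4 CPM, the last in the mitochondria-rich mouse 3. All female 9527+oil mice lay below them, at 4.00 to 6.29 CPM, with a log2 fold change of -1.07 ± 0.53 (adjusted p = 0.914) that was -0.40 without the mitochondria-rich libraries. Markers of mast cells and basophils, cells that carry ST2, summed to 301 to 378 CPM in male saline mice and 316 to 375 CPM in male Corexit 9527 mice, with up to 3 of the 9 markers at 0 in a mouse of the latter group.

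**Figure D2:**
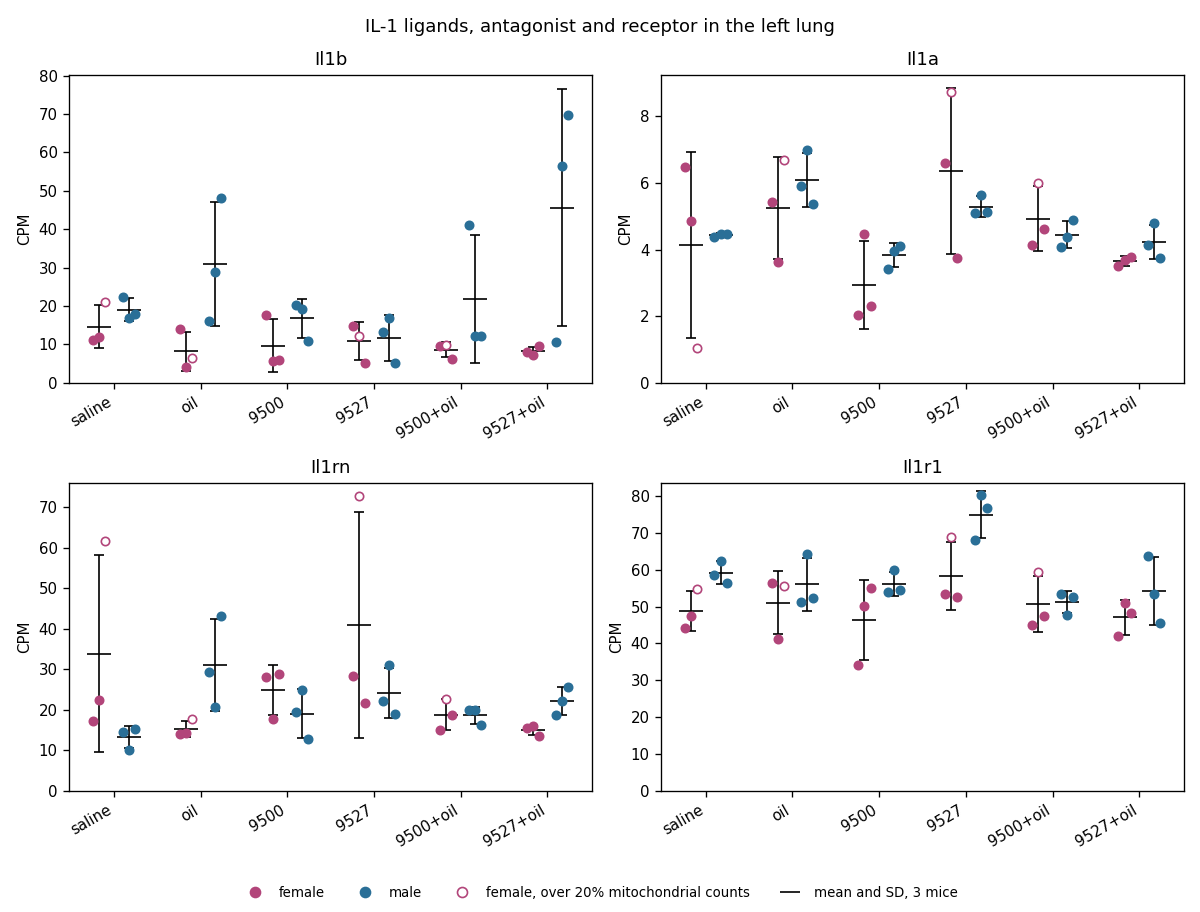
Level of Il1b, Il1a, Il1rn and Il1r1 in CPM, 1 point per mouse, by treatment and sex, with the mean and SD of 3 mice and open points for the mitochondria-rich female libraries. Il1b spreads widely among treated male mice, up to 69.7 CPM, and male Il1rn is above saline in every mouse treated with oil, Corexit 9527, 9500+oil or 9527+oil.

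Il1b, the gene of the secreted IL-1beta made by monocytes, macrophages and neutrophils, was widely spread within treated male groups. Male saline mice had 16.7, 18 and 22.4 CPM of Il1b. Male 9527+oil mice had 10.7, 56.4 and 69.7 CPM, so 2 lay far above saline and mouse 16 below it. Oil gave 16, 28.8 and 48 CPM, and 9500+oil gave 12.2, 12.2 and 41 CPM. After Corexit 9527 alone Il1b was 5.07, 13.1 and 16.8 CPM, and after Corexit 9500 it was 10.8 to 20.2 CPM. No treated male group was apart from saline.

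The log2 fold change of Il1b in male 9527+oil mice was 1.25 ± 0.54 (unadjusted p = 0.0481, adjusted p = 0.885, edgeR). Without mouse 16 it was 1.72 with an adjusted p of 0.00817, and over the mice left out the adjusted p ran from 0.00817 to 0.998. In female mice Il1b was 11, 11.9 and 21 CPM after saline and lower in all 3 mice after 9500+oil (6.27 to 9.71 CPM) and after 9527+oil (7.27 to 9.54 CPM). The log2 fold changes there were -0.85 ± 0.47 and -0.84 ± 0.37, and neither passed (adjusted p = 1 and 0.914). They were -0.52 and -0.47 without the mitochondria-rich libraries.

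In male mice, neutrophil markers followed Il1b mouse by mouse. The 10 markers summed to 300 to 325 CPM in male saline mice, and to 247 CPM in male 9527+oil mouse 16 but 1029 and 1322 CPM in mice 17 and 18. They also stood high in male oil mouse 6 (1026 CPM) and male 9500+oil mouse 13 (844 CPM), which had the highest Il1b of their groups. Across the 18 male mice Pearson's r between log2 Il1b and the log2 sum was 0.972, and across the 18 female mice, whose sums ran from 121 to 244 CPM, it was 0.66. Male Il1b also had r of 0.731 with the summed monocyte markers. Female Il1b had 0.665 with the summed T and NK cell markers and 0.624 with the summed B cell markers. The points of each table share libraries, depth and scaling, and up to 3 of the 10 neutrophil markers were at 0 in a female mouse. In male 9527+oil mice 6 of 9 neutrophil markers tested were higher at an unadjusted p under 0.05, where 5.54% of all genes had one in either direction, with a median log2 fold change of 1.54. The part of these markers in the Il1b values was not tested.

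**Figure D3:**
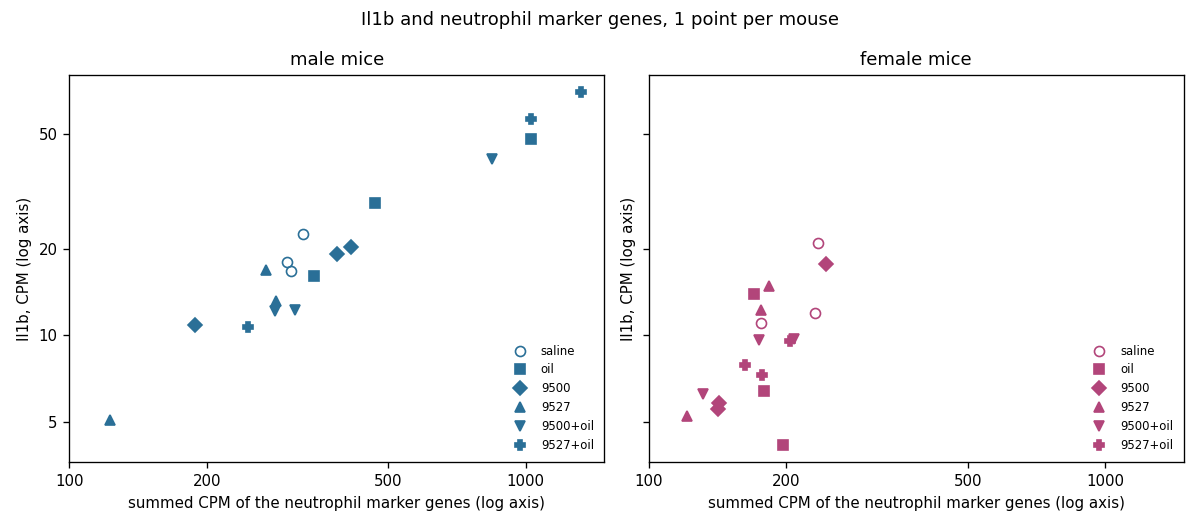
Level of Il1b against the summed level of 10 neutrophil marker genes, both in CPM on log axes, 1 point per mouse, for male (left) and female (right) mice, with symbols for treatments and open circles for saline. The 4 male mice with sums from 844 to 1322 CPM have Il1b of 41 to 69.7 CPM, and female mice stay below both.

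Il1a, which codes for the alarm cytokine IL-1alpha held inside cells, was narrowly spread in male mice. Male saline mice had 4.38, 4.46 and 4.47 CPM of Il1a, from 88, 85 and 99 counts. All oil mice (5.38, 5.90 and 6.98 CPM) and all Corexit 9527 mice (5.11, 5.12 and 5.65 CPM) lay above them, while all Corexit 9500 mice (3.43 to 4.12 CPM) lay below. The log2 fold change after oil was 0.45 ± 0.19 (unadjusted p = 0.0463, adjusted p = 0.594, edgeR). Those after Corexit 9527 and Corexit 9500 were 0.26 ± 0.20 and -0.21 ± 0.19 (unadjusted p = 0.241 and 0.301, edgeR). Female saline mice had 1.05, 4.86 and 6.49 CPM, the lowest from 9 counts in mouse 3, and every female group overlapped them.

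Il1rn codes for the IL-1 receptor antagonist, which binds the receptor without signaling. In male mice it was 10.1, 14.4 and 15.1 CPM after saline and stood above all 3 in every mouse of 4 groups. These 4 groups were set against the same 3 saline mice. How many of all genes did not overlap in this way was not counted for any group. Oil gave 20.6, 29.4 and 43.2 CPM, Corexit 9527 gave 19, 22.2 and 30.9 CPM, 9500+oil gave 16.2, 19.8 and 19.9 CPM, and 9527+oil gave 18.7, 22 and 25.6 CPM. Corexit 9500 gave 12.6 to 24.8 CPM and overlapped saline. The saline mean, 13.2 ± 2.72 CPM (SD, n = 3), was the lowest of the 6 and apart from the next, 18.7 ± 2.09 CPM after 9500+oil, and no other neighbours in the order were apart.

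Among male mice, Il1rn had a log2 fold change of 1.23 ± 0.27 after oil, 0.87 ± 0.22 after Corexit 9527, 0.74 ± 0.19 after 9527+oil and 0.50 ± 0.17 after 9500+oil (SE). The unadjusted p values were 0.00148, 0.00357, 0.00369 and 0.018, and none passed after adjustment (0.273, 0.153, 0.885 and 0.506, edgeR). By DESeq2 the oil and Corexit 9527 differences did pass, with adjusted p of 0.00112 and 0.0104. DESeq2 called 195 of 14914 genes after oil and 594 of 14919 after Corexit 9527, where edgeR called 1 and 17. Over the 7 other ways of fitting the adjusted p ran from 0.00112 to 0.292 for oil and from 0.0104 to 0.152 for Corexit 9527.

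Female mice had a different order of Il1rn. Saline mice had 17.3, 22.3 and 61.6 CPM and Corexit 9527 mice 21.6, 28.3 and 72.8 CPM, the highest of each from a mitochondria-rich library. All 9527+oil mice, at 13.5, 15.3 and 16 CPM, lay below the saline mice, and oil mice had 13.9, 14.3 and 17.6 CPM. The log2 fold changes were -1.19 ± 0.53 after 9527+oil and -1.24 ± 0.59 after oil (adjusted p = 0.914 and 1, edgeR), and without the mitochondria-rich libraries they were -0.40 and -0.49. The female minus male difference of the log2 fold changes was -2.39 ± 0.66 for oil (unadjusted p = 0.00453, adjusted p = 1) and -1.91 ± 0.59 for 9527+oil (unadjusted p = 0.00847, adjusted p = 0.948). Without the mitochondria-rich libraries these differences were -1.73 (adjusted p = 0.762) and -1.15 (adjusted p = 0.714).

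Alveolar macrophage markers were set beside Il1rn. The 9 markers summed to 448 to 523 CPM in male saline mice, 606 to 757 CPM in male oil mice and 567 to 701 CPM in male Corexit 9527 mice. In male 9500+oil (492 to 561 CPM) and 9527+oil mice (499 to 544 CPM), whose Il1rn also lay above saline, the sums overlapped those of saline mice. After oil, 5 of 9 were higher and 1 lower at an unadjusted p under 0.05 in male mice, where 8.21% of all genes had one. Across 18 mice Pearson's r between log2 Il1rn and the log2 sum was 0.835 in male and 0.869 in female mice, which share libraries, depth and scaling. The 4 mitochondria-rich libraries are among the female points and had the highest female sums, 636 to 1051 CPM. No r was taken without them. In female mice Il1rn also had r of -0.706 with the summed monocyte markers and -0.69 with the summed red cell markers. The part of the alveolar macrophage markers in the Il1rn values was not tested.

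Il1r1 codes for the signaling receptor of both IL-1 ligands and had the smallest ratio of highest to lowest level in each sex, 2.01 in female and 1.76 in male mice. Male saline mice had 56.3, 58.7 and 62.5 CPM and male Corexit 9527 mice 68.1, 76.7 and 80.3 CPM, all above saline. The log2 fold change was 0.34 ± 0.10 (unadjusted p = 0.00778, adjusted p = 0.182, edgeR). All male 9500+oil mice (47.8 to 53.4 CPM) lay below saline, with -0.21 ± 0.09 (adjusted p = 0.538). Female mice ran from 34.2 to 68.9 CPM, and every treated group overlapped saline.

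Il18bp codes for the secreted protein that binds IL-18. It ran from 0.569 to 8.67 CPM in male and up to 9.85 CPM in female mice, was listed at 0 in female 9500+oil mouse 15, and overlapped saline in every group of both sexes. Its log2 fold changes against saline ran from -0.62 ± 0.29 in male 9500+oil mice to 0.69 ± 0.61 in female Corexit 9500 mice. Il18 was listed at 0 in 15 of 18 female mice, among them all saline mice. The 3 others were oil mouse 6 with 20 counts, Corexit 9500 mouse 7 with 5 counts and Corexit 9527 mouse 11 with 101 counts. Lung epithelium is known to express Il18, and a listed 0 can be a failed estimate, so these values are not read as its level and no fold is given.

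Tnf, the gene of the early inflammatory cytokine TNF, was 1.29, 1.45 and 2.68 CPM in male saline mice. It was 2.39, 3.96 and 4.23 CPM after oil and 2.50, 3.57 and 4.09 CPM after Corexit 9527. In both groups 2 mice lay above saline and 1 within it. The log2 fold changes were 0.97 ± 0.37 and 0.91 ± 0.38 (unadjusted p = 0.0304 and 0.0414, adjusted p = 0.531 and 0.337, edgeR). In the other male groups Tnf ran from 1.77 to 3.91 CPM. Female mice had 0, 3.17 and 3.87 CPM after saline and 0, 1.30 and 3.51 CPM after Corexit 9527, with the values of 0 in mitochondria-rich mice 3 and 11. The standard errors of the female log2 fold changes of Tnf, 1.19 to 1.82, were larger than the changes themselves. Without the mitochondria-rich libraries the changes were -0.89 after oil (unadjusted p = 0.0484) and -0.67 after 9527+oil (unadjusted p = 0.0287), with adjusted p of 1 and 0.373, and the female minus male difference of Tnf after oil was -1.86 (adjusted p = 0.762, edgeR).

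Il6 was hardly detected. It had 0 to 20 counts per mouse, was at 0 in 11 of 18 female and 13 of 18 male mice, and reached 0.595 CPM in female Corexit 9527 mouse 10 and 0.614 CPM in male oil mouse 5. The exact 2-sided permutation test of mean CPM within sexes (400 arrangements, smallest possible p = 0.005) gave p values from 0.2 after Corexit 9527 to 1, with adjusted p values from 0.65 over the 5 treatments. None of the 5 differences in Il6 passed.

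**Figure D4:**
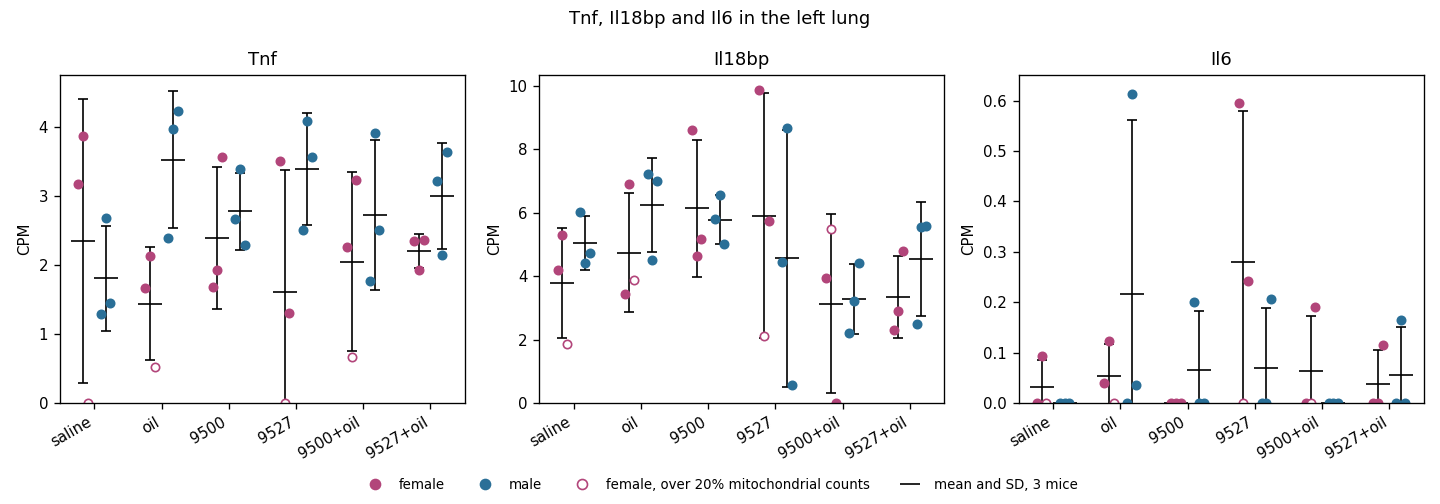
Level of Tnf, Il18bp and Il6 in CPM, 1 point per mouse, by treatment and sex, with the mean and SD of 3 mice and open points for the mitochondria-rich female libraries. Tnf is at 0 in 2 female mice, and Il6 lies at or below 0.614 CPM in all 36.

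Set side by side, male mice had 3 of 8 members higher at an unadjusted p under 0.05 after oil, where 8.21% of genes had one in either direction, and none after Corexit 9500, where 6.35% did. Corexit 9527 gave 5 of 8, namely Il1rn, Il33, Il1r1, Il1rl1 and Tnf, where 13.7% of genes did, with a median of 0.53 over the 8 members. The 9500+oil group gave 1 of 8 (9.22% of genes) and the 9527+oil group 2 of 8 (5.54%). After adjustment 0.00671%, 0.00662%, 0.114%, 0% and 0.00669% of genes passed in the same 5 male comparisons. These comparisons share the saline mice.

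In female mice 0 of 8 members reached an unadjusted p under 0.05 after oil, Corexit 9500, Corexit 9527, 9500+oil or 9527+oil, where 0.108%, 0.364%, 0.267%, 0.155% and 1.1% of genes did, and 0% of genes passed after adjustment by edgeR. Without the mitochondria-rich libraries, 4 of 8 members (Il1a, Il1b, Il1rn and Tnf) were lower at an unadjusted p under 0.05 after 9527+oil, where 12.3% of genes had one in either direction. Tnf was lower after oil (0.959% of genes), Il33 was higher after Corexit 9500 (1.64%) and after Corexit 9527 (4.98%), and none of 8 reached it after 9500+oil (1.24%). DESeq2 and the other ways of fitting called no member in female mice either. After 9527+oil all 8 members had a log2 fold change below 0, with a median of -0.34 beside 0.09 over all genes. Without the mitochondria-rich saline mouse 3, Il33 stood at 0.02 and Il1r1 at 0.04 there, and the other members stayed below 0. For the female minus male difference, 1 of 8 members (Il1rn) reached an unadjusted p under 0.05 after oil and 2 of 8 (Il1rn and Il1b) after 9527+oil, where 1.65% and 2.39% of genes did. None did after Corexit 9500, Corexit 9527 or 9500+oil (0.726%, 0.352% and 0.509% of genes), and 0% of genes passed after adjustment. The Il1b difference after 9527+oil was -2.08 ± 0.76. Leaving out the mitochondria-rich libraries, 3 of 8 differences reached it after oil (Il1a, Il1rn and Tnf), 3 of 8 after 9527+oil (Il1b, Il1rn and Tnf) and 1 of 8 after 9500+oil (Il1rn), all below 0, where 5.98%, 6.73% and 2.63% of genes did. None of 8 did after Corexit 9500 or Corexit 9527 (1.96% and 2.81%).

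**Figure D5:**
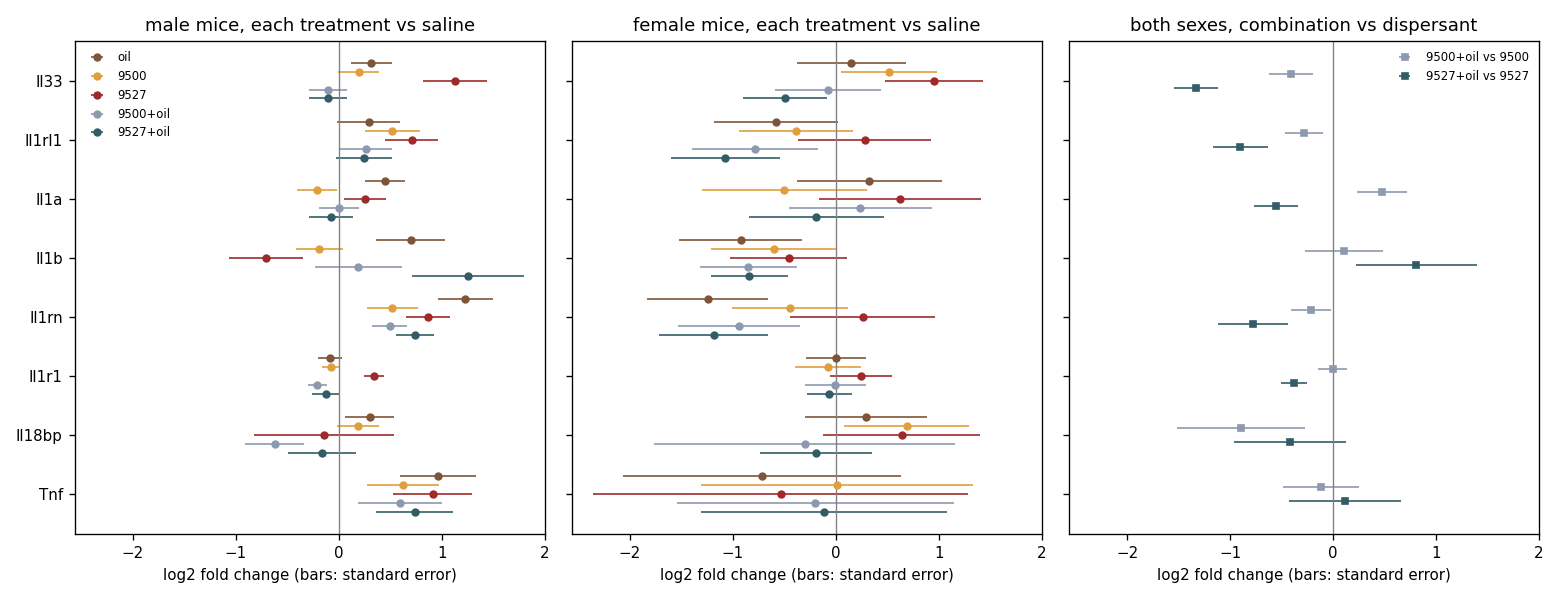
Log2 fold change with its SE for the 8 members tested, each treatment against saline in male (left) and female (middle) mice, and each oil and dispersant combination against the dispersant alone over both sexes (right). Male Il1rn lies above 0 in all 5 treatments, the SE is larger in female mice everywhere except for Il1b after 9527+oil, and in the right panel Il33 in 9527+oil against Corexit 9527 lies farthest below 0 at -1.33.

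The wider pathway was read from lists of other genes. Of 10 further receptor genes, Il6ra, the ligand-binding chain of the IL-6 receptor, rose in 9527+oil mice against Corexit 9527 mice (log2 fold change 0.68 ± 0.13, adjusted p = 0.0412, edgeR), and no other passed in any comparison. That call was lost without any 1 of 10 of the 12 mice (adjusted p up to 0.14), the exceptions being female mouse 11 and male mouse 12 of the Corexit 9527 group. Of 22 signaling genes, such as Myd88, and 8 processing genes, such as those of the inflammasome, none passed. In male oil mice 3 of 8 processing genes had a higher level at an unadjusted p under 0.05, beside 8.21% of all genes in either direction, including Pycard, the inflammasome adaptor, at 0.69 ± 0.16 (adjusted p = 0.319).

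Of the list of 22 NF-kappaB and STAT3 target genes, Lcn2, an iron-binding protein induced by IL-1beta, rose in male Corexit 9527 mice (1.31 ± 0.17, adjusted p = 0.0468), the only 1 of 19 tested to pass, where 0.114% of all genes did. The call held without Corexit 9527 mouse 10 or 12 and was lost without mouse 11 (adjusted p = 0.051) or any 1 of the 3 saline mice (up to 0.214), with log2 fold changes from 1.11 to 1.46. In male oil mice 7 of 19 were higher at an unadjusted p under 0.05, where 8.21% of all genes had one, with Lcn2 at 1.69 ± 0.18 (adjusted p = 0.0823) and Saa3, an acute-phase gene, at 3.61 ± 0.57 (adjusted p = 0.169). The median of the 19 was 0.37 there, beside -0.01 over all genes. In female 9500+oil mice 4 of 19 were lower at an unadjusted p under 0.05, where 0.155% of genes had one, with Saa3 at -4.29 ± 1.07 and Cxcl1 at -2.38 ± 0.75 (adjusted p = 1 for both). With those libraries of high mitochondrial share left out 5 of 18 were lower, where 1.24% of genes had such a p, with Saa3 at -4.47 ± 0.79 and Cxcl1 at -2.59 ± 0.61 (adjusted p = 1 for both). In the same fits 6 of 18 were lower after 9527+oil, where 12.3% of genes had one.

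Type 2 response genes belong to a program that IL-33 is known to drive. In 9527+oil against Corexit 9527 mice Retnla (-3.58 ± 0.68, adjusted p = 0.0428) fell, where 0.559% of all genes passed. Of 13 genes tested 8 were lower and 1 higher at an unadjusted p under 0.05, where 14.1% of all genes had one in either direction. The median of the 13 was -1.52, beside 0.01 over all genes. Retnla codes for a secreted product of alternatively activated macrophages. With each of the 12 mice left out, Retnla passed in 3 fits (adjusted p 0.0105 to 0.198, log2 fold change -4.14 to -3.20), those without female mouse 11 or male mouse 12 of the Corexit 9527 group or male 9527+oil mouse 18. Chil3, a chitinase-like protein of such macrophages, was at -1.68 ± 0.36 (adjusted p = 0.0723). After Corexit 9527 against saline, over both sexes, 5 of 11 had higher levels at an unadjusted p under 0.05, where 2.86% of all genes had one, and none passed, with Retnla at 2.87 ± 0.65, Chil3 at 1.33 ± 0.29 and Ccl22, a T cell chemokine, at 1.10 ± 0.39. The median was 0.85, beside 0.01 over all genes. Retnla was also high where Il33 overlapped saline, at 3.33 ± 0.78 in male oil mice (adjusted p = 0.319) and 2.73 ± 0.35 in male Corexit 9500 mice (adjusted p = 0.247). In 9500+oil against Corexit 9500 mice 5 of 11 type 2 genes were lower at an unadjusted p under 0.05, where 1.95% of genes had one, with Retnla at -2.77 ± 0.68 and Chil3 at -0.82 ± 0.23 (adjusted p = 1 for both). Of the IL-36 and related genes, 1 of 9 listed had a row, Il1f9, at 1.52 ± 0.34 in male 9527+oil mice (adjusted p = 0.885).

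Across mice, the members were not alike. Genes were ranked by the lower of the Pearson r of log2 CPM over the 18 female and the 18 male mice, among 15259 genes. Il33 was followed most closely by Gclc (0.919 in female and 0.9 in male mice), which codes for a subunit of the enzyme that limits glutathione synthesis, and by Pdia4 (0.878 and 0.882) and Hspa5 (0.897 and 0.856), both chaperones of the endoplasmic reticulum. Il1rn was nearest to Csf2ra (0.859 and 0.913), a chain of the GM-CSF receptor, then Lcp1 and Clec5a. Il1b was nearest to Fgr (0.783 and 0.778), a kinase of myeloid cells, then Ms4a4c and Ms4a6b. Il1r1 was nearest to Lpp (0.859 and 0.807) and Il1rl1 to Fuca2 (0.867 and 0.769).

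Tnf was nearest to Slc35c1 (0.948 and 0.764), Il1a to Bcl2a1b (0.736 and 0.751) and Il18bp to Haus7 (0.715 and 0.631). Between the members themselves, Il33 and Il1rl1 had r of 0.822 in female and 0.479 in male mice, and Il1rn and Il1rl1 had 0.911 and 0.475. Tnf and Il1rn had -0.748 in female and 0.526 in male mice. The mitochondria-rich libraries are among the female points, and all points of a table share its scaling.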

How the data were processed

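Total RNA of the left lung of 36 mice was sequenced. The authors estimated reads per GRCm38 transcript with Salmon and deposited the estimated counts, without normalization, separately for each sex. The values were whole numbers already, so the rounding changed none, and 0 columns matched no sample. For each sex, 4 rows sharing a name were left out (0.0103% and 0.0128% of the counts). Depth was 17501180 to 30011557 counts per mouse.

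Groups came from the sample labels. After filterByExpr and TMM normalization, genes were tested 2-sided by quasi-likelihood (edgeR 4.0.16, R 4.3.3), with Benjamini-Hochberg adjustment over all genes tested and a threshold of 0.05. Sex was a covariate where both sexes were fitted together. The sexes were compared by the interaction term. Log2 CPM used a prior count of 2. An SE is the log2 fold change divided by the square root of F. Scripts were tested on simulated data.

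The members, gene lists and marker lists were chosen with earlier results of these data known. The text names all 10 members, every other listed pathway gene with an adjusted p under 0.05, at most 4 with the smallest unadjusted p in a comparison described, and the nearest 3 genes by correlation. A gene of the type 2 list is counted but not reported here by name. Alternatives were DESeq2 1.42.0, limma 3.58.1 voom with sample weights, other normalizations and filters, a joint fit of the 6 groups, fits lacking the sex term, and libraries left out. Gene positions and exon lengths came from the GENCODE annotation of GRCm38.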

Additional observations from a re-analysis of the deposited data

Results flagged for a closer look

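Il1rn after 9527+oil differed between the sexes. The female minus male difference of the log2 fold changes against saline was -1.91, with every female 9527+oil mouse below and every male one above the saline mice of its sex. The interaction of sex and treatment gave an unadjusted p of 0.00847 and an adjusted p of 0.948 (edgeR), so the difference does not pass over all genes. Of the 3 female saline mice, mouse 3 is a mitochondria-rich library with the highest Il1rn of its group. Without it the difference was -1.15 (adjusted p = 0.714). Groups of 3 mice were not examined for single outlying values.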

How the results depend on the processing

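The Il33 difference between 9527+oil and Corexit 9527 mice kept its direction and its call under the other normalizations, filters, tools and sample sets. In these fits 1 member was called, except for 2 under DESeq2 and 2 without the mitochondria-rich female libraries. Under limma voom with sample weights, an alternative chosen after seeing the data, 3 were called. Over all genes DESeq2 called 636 of 15396, the fit without those libraries 1039 of 15660 and voom 1570 of 15396. The main fit called 86 of 15396. With each of the 12 mice left out in turn the direction of the Il33 difference held, but its call was lost in 10 fits (adjusted p 0.0557 to 0.112). In the fits with a mouse left out 0 to 2 members were called. After Corexit 9527 over both sexes no member was called, where 5 of 15328 genes were. With all 6 groups in one fit 1 member was called, beside 106 of 15913 genes. Without the mitochondria-rich libraries 1 was called, beside 331 of 15531 genes, and Il33 was the member in both fits. Under voom 4 were called, beside 796 of 15328 genes. In male mice DESeq2 called 1 member after oil and 1 after Corexit 9527, beside 195 of 14914 and 594 of 14919 genes. The fit of all 6 groups called 1 after Corexit 9527, beside 284 of 15519 genes. In male 9527+oil mice 0 to 1 members were called with each mouse left out, the 1 being Il1b without mouse 16. The causes were not tested, beyond the smaller number of mice in the fits that leave mice out.

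Mouse numbers do not pair male and female mice: over 18 pairs of same-numbered mice the correlation of deviations ran from -0.38 to 0.231, with 7 over 0.1. The replicate block called 0 members for the difference between the sexes, as did the fit without it. Of single values, 1482 of 1632 kept their sign with each mouse left out, 110 of 136 without the mitochondria-rich libraries and 144 of 176 under voom. Requiring 10 counts in all mice of a fit dropped some members, which then have no value. No scaling moved the median of all genes by more than 0.0863 (log2). Il6 had at most 20 counts in a mouse.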
